A study of Arabidopsis thaliana with 10 samples.

Results

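The expression of nuclear genes for photosystem subunits was followed in leaves of Arabidopsis thaliana in 4 genes: PSAN (AT5G64040) and PSAE-1 (AT4G28750) of photosystem I, and PSBW (AT2G30570) and PSBY (AT1G67740) of photosystem II. They were chosen by name, with earlier results of these data known. They are the nuclear subunit genes that could be identified on the array, where 4 of 24 genes on a list of such subunits had a named probe set. Each is read by 1 probe set of 22810, and all 4 probe sets were bright enough to be among the 12184 tested. The study measured RNA of fully expanded leaves on 10 Affymetrix arrays, in 5 groups of 2. Its title asks how mutants of stress response pathways alter expression in senescing leaves.

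Wild type was sampled at growth stage 3.9, when the rosette is fully grown, and at stage 6.0, when the first flower opens. NahG, ein2 and coi1 leaves were taken at stage 6.0 only. NahG plants carry a transgene for a bacterial salicylate hydroxylase, which breaks down salicylic acid. The ein2 mutant is known as ethylene-insensitive and the coi1 mutant as jasmonate-insensitive. All plants grew in compost in a growth room without treatment, and the 3 altered genotypes are in the Columbia background. The plants' age in days and the promoter of the transgene are not given in the sources used here. In both wild type groups array 1 carries stock code N933 and array 2 carries N1644. The N1644 array of stage 3.9 names Col-5 as its source and the N1644 array of stage 6.0 names Col-0. The ein2 and coi1 arrays share stock code N3071 and are both labelled transgenic, and the NahG arrays carry no stock code. These origins therefore rest on labels that conflict. No probe set is named for EIN2 or COI1 here, and the altered genes were not checked. Whether the arrays of an altered genotype came from separate plants is not stated in the labels, so the p-values measure only the spread between these samples.

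The photosystems are membrane complexes of the chloroplast that turn light into electron flow. Photosystem II takes electrons from water, and photosystem I passes them on to ferredoxin. Both complexes are mosaics: the chloroplast genome encodes their reaction centres, and nuclear genes such as these encode subunits that are imported from the cytosol. PSAN lies on the lumenal face of photosystem I, where plastocyanin docks. PSAE-1 lies on the stromal face, where ferredoxin docks, and has a near copy, PSAE-2. Whether the PSAE-1 probe set also reads PSAE-2 was not tested. PSBW is a small membrane subunit of photosystem II. PSBY is a small membrane protein of the same complex, cut from a precursor that holds more than 1 mature protein. Loss of photosynthetic transcripts is a familiar part of leaf senescence.

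Signals are MAS5 values on a linear scale in arbitrary units, with each array scaled to a trimmed mean of 100. Correlations between the arrays of a group lay between 0.941 and 0.977 across probe sets. The number of probe sets at a signal of 50 or more was 9738 to 10835 per array. The carbon fixation genes RCA, PRK and SBPASE, the 3 named of 9 markers of leaf mesophyll, summed to 3712 to 10190 on every array, so the labelled tissue is represented. EXPA7, the 1 named of 3 root markers, lay between 15.02 and 32.13 and was not tested. Markers of trichomes, vascular tissue, floral organs and dividing cells have no named probe set here.

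PSAN had the widest range of the 4 genes. On arrays 1 and 2 of each group, wild type signals were 4817 and 3481 at stage 3.9 but 431.7 and 448.9 at stage 6.0, while NahG gave 1357 and 1303, ein2 gave 590.6 and 749.5, and coi1 gave 542.7 and 545.7. The ranges of the 5 groups did not overlap in any pair, which held for 2.18% of all tested probe sets. At stage 6.0 wild type kept 10.6% of the mean PSAN signal of stage 3.9, coi1 kept 13.1%, ein2 kept 16.2% and NahG kept 32.1%.

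PSAE-1 followed the same order of groups over a narrower range. Its wild type signals were 6002 and 4376 at stage 3.9 but 1072 and 1210 at stage 6.0, while NahG gave 2064 and 2071, ein2 gave 1456 and 1440, and coi1 gave 1138 and 1555. The NahG arrays lay above all other stage 6.0 arrays and below both stage 3.9 arrays, while coi1 overlapped wild type and ein2. How many of all tested probe sets show this order was not counted. Both NahG arrays were above both stage 6.0 wild type arrays for 26.6% of them. Relative to the stage 3.9 mean, wild type kept 22.0% of the PSAE-1 signal, coi1 kept 25.9%, ein2 kept 27.9% and NahG kept 39.8%.

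PSBW changed least. Its wild type signals were 4873 and 4222 at stage 3.9 but 1817 and 2177 at stage 6.0, while NahG gave 2772 and 2561, ein2 gave 1985 and 2682, and coi1 gave 1821 and 2841. The stage 3.9 arrays stood above all others, as for 17.8% of all tested probe sets. At stage 6.0 the groups overlapped in every pair except wild type and NahG. Both NahG arrays were above both wild type arrays there, as for 26.6% of all tested probe sets. Wild type kept 43.9% of the stage 3.9 mean of PSBW, ein2 and coi1 each kept 51.3%, and NahG kept 58.6%.

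PSBY ordered the genotypes differently. Its wild type signals were 4459 and 3622 at stage 3.9 but 1059 and 1376 at stage 6.0, while NahG gave 1497 and 1428, ein2 gave 1190 and 1150, and coi1 gave 1648 and 1676. Here coi1 was the highest of the stage 6.0 groups, and both ein2 arrays fell inside the range of the wild type arrays. Of the stage 3.9 mean of PSBY, ein2 kept 29.0%, wild type 30.1%, NahG 36.2% and coi1 41.1%.

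**Figure D1:**
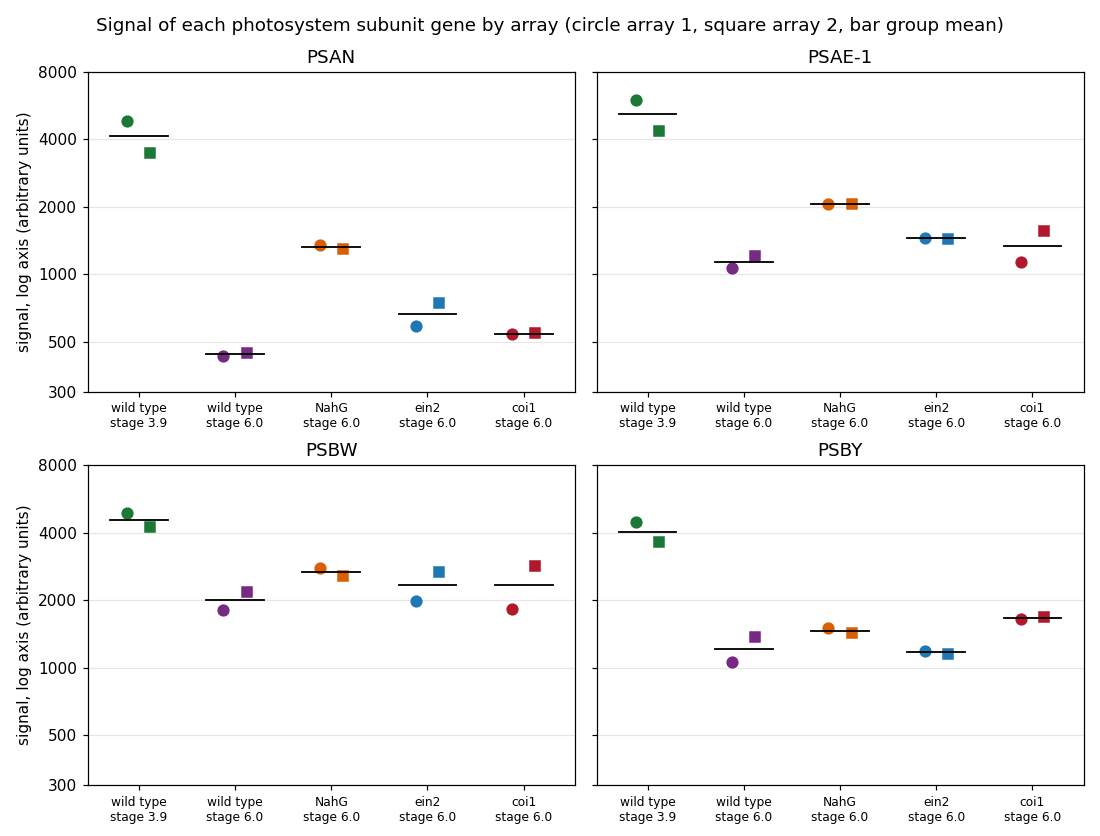
Signal of PSAN, PSAE-1, PSBW and PSBY on each of the 10 arrays, on a logarithmic axis in arbitrary units, with circles for array 1, squares for array 2 and bars for the mean of the 2 arrays. Every stage 3.9 array lies above every stage 6.0 array of the same gene, as for 17.8% of all tested probe sets, and the NahG arrays of PSAN (1357 and 1303) stand apart from the other stage 6.0 arrays. Heights are comparable within a panel, not between panels.

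The first comparison asks how these transcripts differ between full rosette growth and first flowering in wild type. All 4 fell. PSAN changed by a log2 difference of -3.17 ± 0.20 (SE, n = 2 arrays per group; limma adjusted p = 1.78e-06), a 9.01-fold drop. PSAE-1 changed by -2.15 ± 0.21 (limma adjusted p = 2.56e-05) and PSBY by -1.72 ± 0.19 (limma adjusted p = 5.38e-05). PSBW had the smallest difference, -1.18 ± 0.24 (limma adjusted p = 0.00285), a 2.27-fold drop. Of all 12184 probe sets tested, 17.2% fell and 37.4% changed in either direction at an adjusted p under 0.05, and their median log2 difference was 0.05. Ranked from the lowest difference upward, PSAN was at place 63, PSAE-1 at 244, PSBY at 440 and PSBW at 952. For each of the 4 genes both stage 3.9 arrays were above all 8 stage 6.0 arrays, as they were for 17.8% of all tested probe sets.

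The 95% intervals, in log2 units, ran from -3.61 to -2.73 for PSAN, from -2.62 to -1.69 for PSAE-1, from -2.14 to -1.31 for PSBY and from -1.71 to -0.65 for PSBW. The direction was the same within both stocks for each gene, as it had to be where the ranges of the stages do not overlap. PSAN differed by -3.43 between the N933 arrays and by -2.91 between the N1644 arrays. For PSBW these differences were -1.42 and -0.95, for PSAE-1 -2.47 and -1.84, and for PSBY -2.06 and -1.39. The drop was larger in N933 for each of the 4 genes, with 1 array per stock and stage and so no test. The genes share these arrays, and how many of all tested probe sets had the larger drop in N933 was not counted.

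The size of these drops depends on how the arrays are put on a common scale. With quantile normalization they were -2.72 for PSAN, -1.62 for PSAE-1, -1.16 for PSBY and -0.5 for PSBW, all still past the threshold. The bacterial and phage transcripts added for hybridisation had a median signal of 298 and 273 on the stage 3.9 arrays against 152 and 153 on the stage 6.0 wild type arrays. Scaled to them, the median of all probe sets moved to 0.8, and relative to that median PSAN stood at -3.08, PSAE-1 at -2.06, PSBY at -1.62 and PSBW at -1.08. Without subtracting it, PSBY at -0.82 (limma adjusted p = 0.0715) and PSBW at -0.28 (limma adjusted p = 0.494) no longer passed. The ubiquitin 3' to 5' ratio, a measure of RNA integrity, read 2.12 and 2.24 for the stage 3.9 arrays against 1.34 and 1.3 for the stage 6.0 wild type arrays. The actin ratio was also higher at stage 3.9 (2.43 and 2.7 against 2.08 and 1.77), while the GAPDH ratio was lower (0.974 and 0.958 against 1.17 and 1.02). The part of RNA integrity in the result was not tested. In whole leaves, fewer cells with these transcripts and less transcript per cell cannot be told apart.

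The same direction held when each altered genotype at stage 6.0 was set against wild type at stage 3.9, although these comparisons share the stage 3.9 arrays and mix stage with genotype. All 4 genes were lower in NahG (15.3% of all tested probe sets were lower), in ein2 (16.1%) and in coi1 (15.2%). PSAN stood at a log2 difference of -1.61 ± 0.20 in NahG, -2.59 ± 0.20 in ein2 and -2.88 ± 0.20 in coi1 (SE; limma adjusted p at most 0.000158). The PSAE-1 differences were -1.3 ± 0.21, -1.81 ± 0.21 and -1.93 ± 0.21 in that order (limma adjusted p at most 0.000864). The PSBY differences were -1.45 ± 0.19, -1.77 ± 0.19 and -1.27 ± 0.19 (limma adjusted p at most 0.000517). PSBW was closest to the threshold, at -0.76 ± 0.24 in NahG (limma adjusted p = 0.0326), -0.97 ± 0.24 in ein2 and -0.99 ± 0.24 in coi1. With quantile normalization PSBW passed in none of them, at -0.29, -0.45 and -0.33 (limma adjusted p = 0.203, 0.0523 and 0.138). The PSBW call in NahG was also lost without stage 3.9 array 1 (limma adjusted p = 0.123) or array 2 (0.0521) and without NahG array 1 (0.0995) or array 2 (0.15). The call in ein2 was lost without ein2 array 1 (0.0807), and that in coi1 without coi1 array 1, where the difference was -0.67 (0.0627). Scaled to the hybridisation controls, all 4 genes lost their calls in NahG, from -0.94 for PSAN (limma adjusted p = 0.105) to -0.09 for PSBW (0.851), PSBW lost its call in ein2 (-0.36), and PSBW (-0.25) and PSBY (-0.53) lost theirs in coi1. No sign turned.

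The second comparison asks what each genotype changes in leaves of the same stage. In NahG both photosystem I genes were higher than in wild type. PSAN was higher by 1.56 ± 0.20 on the log2 scale (SE, n = 2 arrays per group; limma adjusted p = 0.000683), a 2.95-fold difference. PSAE-1 was higher by 0.85 ± 0.21 (limma adjusted p = 0.03), a 1.8-fold difference. These are 2 of 4 genes, while 3.61% of all tested probe sets were higher and 9.11% differed in either direction. The photosystem II genes did not pass, with PSBW at 0.42 ± 0.24 (limma adjusted p = 0.334; 95% interval -0.11 to 0.95) and PSBY at 0.27 ± 0.19 (limma adjusted p = 0.429; 95% interval -0.14 to 0.69). For all 4 genes both NahG arrays were above both wild type arrays, as they were for 26.6% of all tested probe sets. Whether the photosystem I and photosystem II genes differ in their response to NahG was not tested.

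The PSAN call in NahG held without any single array (limma adjusted p from 0.000196 to 0.0127) and in each other scaling, although with the hybridisation controls it was close to the threshold (1.34, limma adjusted p = 0.0467). The PSAE-1 call was lost when any of the 4 arrays compared was left out: without wild type array 1 the difference was 0.77 (limma adjusted p = 0.139), without wild type array 2 it was 0.94 (0.0839), and without NahG array 1 or array 2 it was 0.85 (0.163 and 0.131). It was also lost with no filter on low signals (0.101) and with the hybridisation controls (0.62, adjusted p = 0.713). The ubiquitin 3' to 5' ratio was 1.66 and 1.6 in NahG against 1.34 and 1.3 in wild type, the actin ratio 2.6 and 2.11 against 2.08 and 1.77, and the GAPDH ratio 1.28 and 1.21 against 1.17 and 1.02. Their part in the result was not tested.

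**Figure D2:**
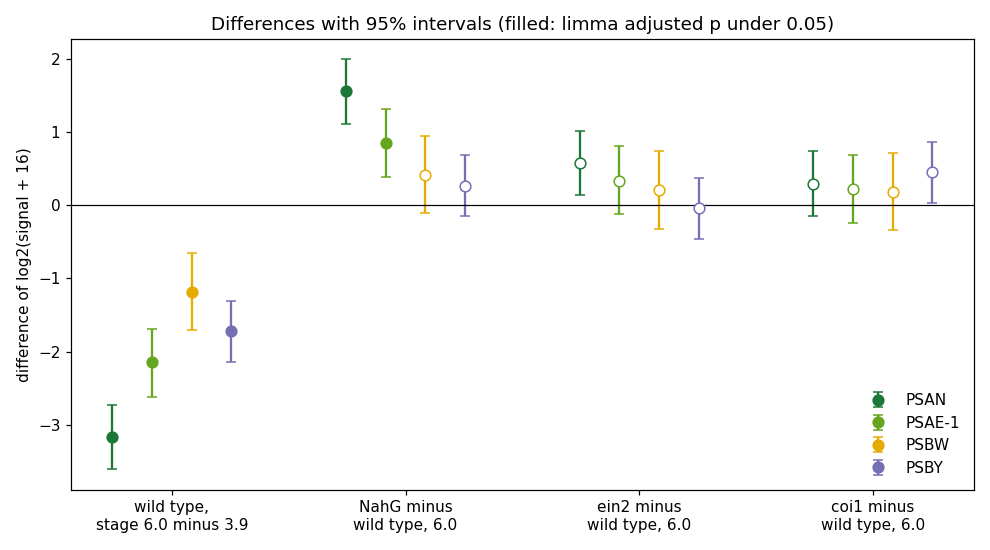
Differences of log2(signal + 16) between groups for PSAN, PSAE-1, PSBW and PSBY, with 95% intervals from limma, and filled points where the adjusted p is under 0.05. The 4 genes fall between the wild type stages, from -3.17 for PSAN to -1.18 for PSBW. In NahG only PSAN (1.56) and PSAE-1 (0.85) are filled, and in ein2 and coi1 no point is.

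In ein2, 0 of 4 genes passed in limma, where 0.123% of all tested probe sets did. At an unadjusted p under 0.05, for which no share of all probe sets was computed, there was 1 of 4. That gene was PSAN, at a log2 difference of 0.58 ± 0.20 (SE; limma unadjusted p = 0.015, adjusted p = 0.354; 95% interval 0.14 to 1.02). PSAE-1 stood at 0.34 ± 0.21 (95% interval -0.12 to 0.81), PSBW at 0.21 ± 0.24 (-0.32 to 0.74) and PSBY at -0.04 ± 0.19 (-0.46 to 0.37). A difference of 0.85, that of PSAE-1 in NahG, lies inside the PSAN interval and above the other 3.

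In coi1, 0 of 4 genes passed in limma as well, against 1.01% of all tested probe sets. At an unadjusted p under 0.05, again without a computed share of all probe sets, there was 1 of 4. Here it was PSBY, at 0.46 ± 0.19 (SE; limma unadjusted p = 0.034, adjusted p = 0.305; 95% interval 0.04 to 0.87). PSAN stood at 0.3 ± 0.20 (95% interval -0.15 to 0.74), PSAE-1 at 0.22 ± 0.21 (-0.24 to 0.69) and PSBW at 0.19 ± 0.24 (-0.34 to 0.72). The coi1 arrays themselves differed most for PSBW, at 1821 and 2841.

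The altered genotypes were also set against each other. PSAN was higher in NahG than in ein2 by 0.98 ± 0.20 (SE; limma adjusted p = 0.0118). It was the 1 gene of 4 to pass, with 3.34% of all tested probe sets higher. This call was lost without NahG array 1, at 0.95 (limma adjusted p = 0.105), without NahG array 2, at 1.01 (0.062), and without ein2 array 1, at 0.81 (0.112). PSAN was higher in NahG than in coi1 by 1.26 ± 0.20 (limma adjusted p = 0.00214), again 1 of 4 genes, with 5.03% of all tested probe sets higher. Here the call held without any single array (limma adjusted p from 0.000722 to 0.0275). With the hybridisation controls neither PSAN difference passed, at 1.04 against ein2 (0.285) and 1.2 against coi1 (0.0976). PSAE-1 stood at 0.63 ± 0.21 in NahG minus coi1 (limma adjusted p = 0.0863) and at 0.51 ± 0.21 in NahG minus ein2 (0.209). The PSAE-1 difference between NahG and coi1 passed at 0.0497 without stage 3.9 array 1 and at 0.05 without stage 3.9 array 2, arrays that enter this difference only through the shared fit. Between ein2 and coi1, 0 of 4 genes passed in limma, against 0.706% of all tested probe sets. At an unadjusted p under 0.05, for which no share of all probe sets was computed, there was 1 of 4. That was PSBY, lower in ein2 by a log2 difference of -0.5 ± 0.19 (limma unadjusted p = 0.0225, adjusted p = 0.228).

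Read from highest to lowest, PSAN and PSAE-1 gave the order wild type at stage 3.9, NahG, ein2, coi1, wild type at stage 6.0. Among neighbours in this order, stage 3.9 and NahG differed for both genes, and NahG and ein2 differed for PSAN only. The other neighbours did not pass. PSBW gave the same order, with ein2 and coi1 at the same percentage, and only its step from stage 3.9 to NahG passed. PSBY gave stage 3.9, coi1, NahG, wild type at stage 6.0, ein2, and only its step from stage 3.9 to coi1 passed.

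A linear scaling of the arrays cancels almost fully in ratios between genes of the same array, which show how unequally the genes changed. They are given on the log2 scale relative to the stage 3.9 mean of the same ratio, as a description with no test. PSAN over PSBY gave -1.29 and -1.61 for wild type at stage 6.0, while coi1 gave -1.6 and -1.62, ein2 gave -1.02 and -0.63, and NahG gave -0.17 and -0.16. The balance of these 2 transcripts in NahG at stage 6.0 was thus nearer to that of stage 3.9 than in the other stage 6.0 groups. PSAN over PSBW gave -1.89 and -2.09 for wild type at stage 6.0, and NahG gave -0.88 and -0.82. PSAN over PSAE-1 was -0.96 and -1.08 in wild type and -0.28 and -0.34 in NahG, so the photosystem I pair also changed unequally. PSAE-1 over PSBW was -0.93 and -1.02 in wild type and -0.6 and -0.48 in NahG. NahG was not nearest to stage 3.9 in every ratio. PSAE-1 over PSBY was nearest in ein2 (-0.06 and -0.03), with NahG at 0.11 and 0.18. PSBW over PSBY was further away in NahG (0.71 and 0.66) than in wild type (0.6 and 0.48) or coi1 (-0.03 and 0.58). Over the 8 stage 6.0 arrays the correlation of log2 signals was 0.924 between PSAN and PSAE-1, 0.771 between PSAE-1 and PSBW, and 0.625 between PSAN and PSBW. PSBY correlated with the other 3 at 0.225 to 0.334. These arrays share groups, so the values only describe the pattern.

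**Figure D3:**
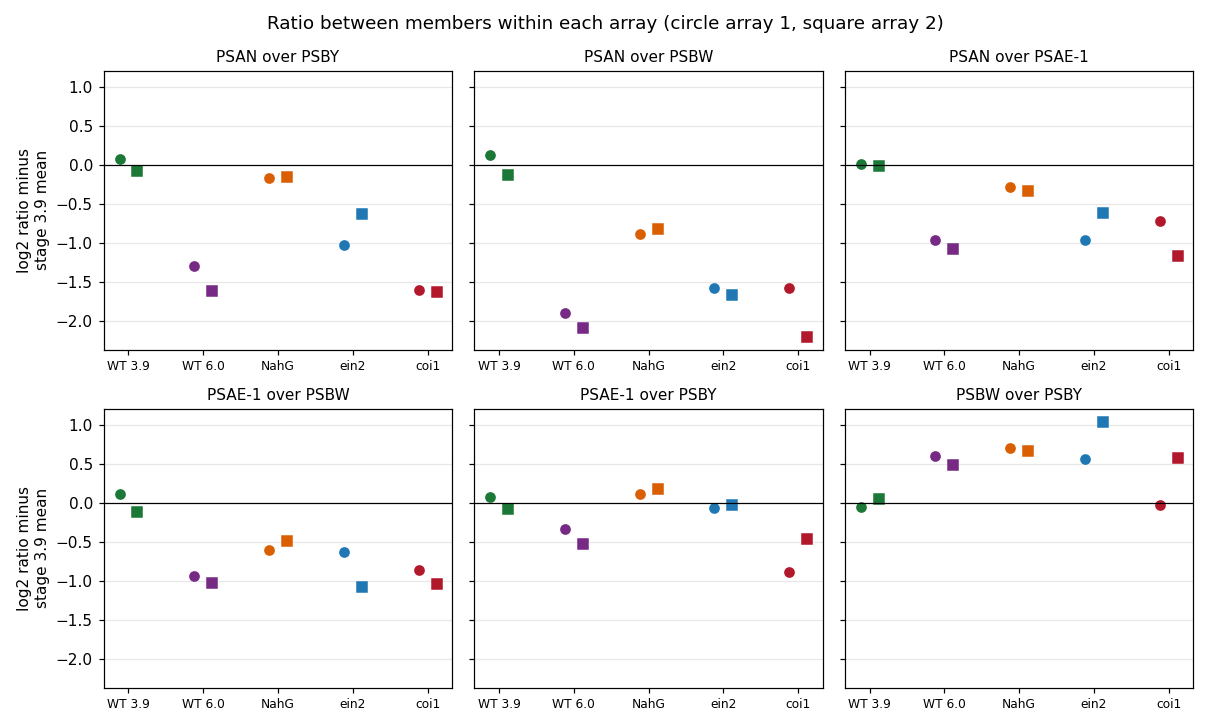
Log2 ratio of each pair of genes within each array, minus the mean of that ratio at stage 3.9, with circles for array 1 and squares for array 2. PSAN over PSBY lies at -0.17 and -0.16 in NahG and between -1.62 and -0.63 in the other stage 6.0 groups.

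The chloroplast genome's own photosystem genes give the other side of the mosaic. All 19 on the list were named and tested. Between the wild type stages 8 of 19 fell and 0 rose, against 17.2% and 20.2% of all tested probe sets, with a median log2 difference of -0.83 (range -1.0 to -0.36). The median of the 4 nuclear genes was -1.94 (range -3.17 to -1.18), so the ranges of the differences do not overlap. Some chloroplast genes varied widely between the wild type arrays of stage 6.0. There psaA gave 291 and 1268 (SE of its stage difference 0.56) and psbB gave 850.6 and 2241 (SE 0.6). The SEs of the nuclear genes were 0.19 to 0.24. Whether the 2 kinds of genes differ in their drop, or are read alike by the arrays, was not tested. Among photosystem I reaction centre genes psaB fell by 0.74 on the log2 scale (limma adjusted p = 0.0292) and psaA stood at -0.47 (0.548). Of photosystem II, psbC, an inner antenna protein, stood at -0.67 (0.0437) and psbA, which encodes the D1 protein, at -0.48 (0.214). In NahG minus wild type 0 of 19 passed in limma, against 9.11% of all tested probe sets, and 0 had an unadjusted p under 0.05, with a median of 0.17. In ein2 both counts were 0 of 19, against 0.123% of all tested probe sets passing, with a median of 0.09. In coi1, 0 of 19 passed, against 1.01%, and 1 had an unadjusted p under 0.05, with a median of -0.26. At each of these shares, that of NahG included, a count of 0 in 19 past the adjusted threshold is near the background. For the counts at an unadjusted p no share of all probe sets was computed, so they have no background here.

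Other named genes of photosynthesis fell along with the 4 between the wild type stages, in which 17.2% of all tested probe sets fell. The light-harvesting antenna list has 3 of 20 genes named, all of the LHCB4 group that binds chlorophyll next to the photosystem II core, and all 3 fell, with log2 differences of -1.64 for LHCB4.1, -3.48 for LHCB4.2 and -1.76 for LHCB4.3. Of the assembly and repair genes 3 of 4 tested fell. They include PSB27, which encodes a lumenal factor of photosystem II assembly and changed by -2.52, and HCF101, an iron-sulphur cluster factor of photosystem I, at -1.12. All 3 tested genes of chlorophyll synthesis fell: PORB, a protochlorophyllide reductase, stood at -3.79, CHLM at -2.68 and GSA1 at -0.82. ATPC1, a subunit of the chloroplast ATP synthase, fell by 1.13. The carbon fixation genes SBPASE, PRK and RCA fell too, at -1.44, -1.28 and -0.91. NOL, a reductase of chlorophyll b breakdown and the 1 named of 10 breakdown genes, stood at 0.3 and did not pass (limma adjusted p = 0.229). The guard cell marker AT1G22690, 1 of 4 on its list tested, stood at -3.0. Its signals were 471.2 and 365.9 at stage 3.9 against 23.65 and 57.76 in wild type at stage 6.0. FMA, the other named guard cell marker, was too dim to be tested. It gave 32.18 and 62.58 at stage 3.9 against 19.22 and 43.07 in wild type at stage 6.0, so its ranges overlapped. Their part in the drop of the 4 genes was not tested.

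In NahG minus wild type 3 of these genes passed besides PSAN and PSAE-1, where 9.11% of all tested probe sets differed. They were 1 higher and 1 lower of the 3 antenna genes and 1 higher of the 3 tested chlorophyll synthesis genes. Of the 4 tested assembly and repair genes 0 passed. LHCB4.2 was higher by 1.33 (limma adjusted p = 0.0303), PORB was higher by 0.95 (0.0426), and LHCB4.3 changed the other way, by -1.1 (0.0303). The 3 carbon fixation genes stood between -0.21 and 0.04, with 0 of 3 past the threshold in limma, a count near the background of 9.11%. At an unadjusted p under 0.05, for which no background share was computed, there were 0 as well. AT1G22690 stood at 0.94 (0.0609), with 79.97 and 96.93 in NahG, and FMA, which was not tested, gave 47.84 and 38.75. In coi1 minus wild type, where 1.01% of all tested probe sets passed, LHCB4.3 was higher by 1.41 (0.0405). PSB27 stood at 0.76 (0.0786) beside the 0.46 of PSBY. The 4 tested assembly and repair genes ran from 0.27 to 0.76. Those of chlorophyll synthesis ran from 0.09 to 0.63 and those of carbon fixation from 0.31 to 0.66. LHCB4.1 stood at 0.31, LHCB4.2 at 0.19 and ATPC1 at 0.32. None of these passed. In ein2 none of the genes named here passed, where 0.123% of all tested probe sets did. The 6 regulators of photosynthetic genes on the list have no named probe set here.

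**Figure D4:**
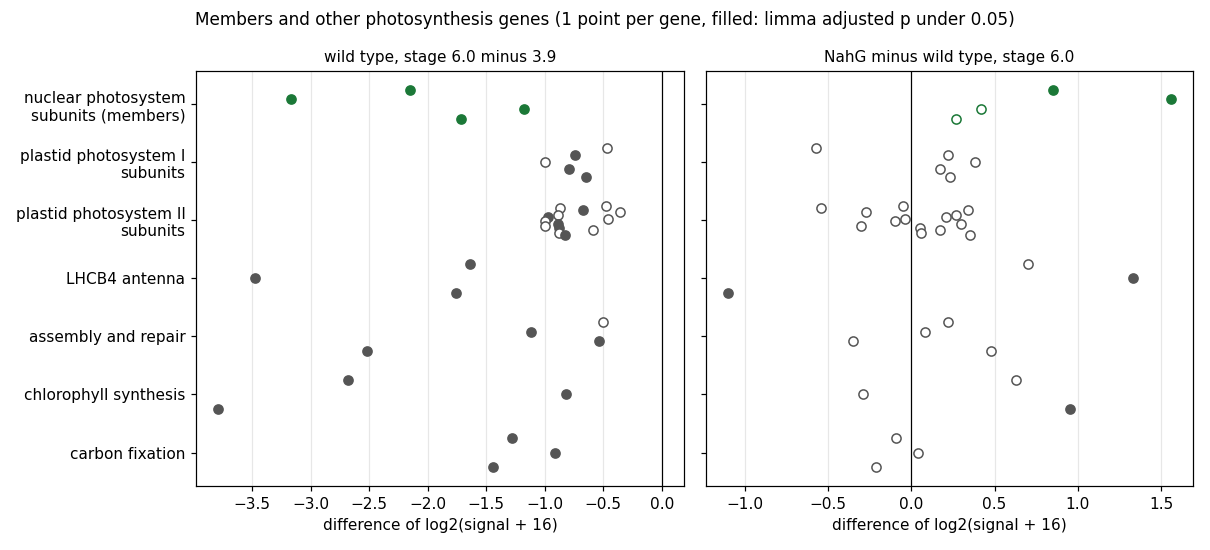
Differences of log2(signal + 16) for the 4 nuclear photosystem genes and for other photosynthesis genes, 1 point per gene, filled where the limma adjusted p is under 0.05, between the wild type stages (left) and between NahG and wild type at stage 6.0 (right). The nuclear genes reach -3.17 between stages while the chloroplast-encoded subunits stay between -1.0 and -0.36. In NahG the chloroplast-encoded subunits have no filled point, a count near the background of 9.11%.

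The genes of most similar pattern were taken from the 6452 tested probe sets that name 1 gene, by Pearson's correlation of log2 signals over the 10 arrays. For PSAN these were AT1G25230 (0.99), AT5G19940 (0.99) and PSAE-1 (0.983). For PSAE-1 they were AT1G51400 (0.986), AT1G21500 (0.984) and PSAN. PSBW was most like LHCB4.1 (0.97), GAPC2 (0.968) and the chloroplast gene psaI (0.958). PSBY was most like PSB27 (0.99), AT1G10740 (0.986) and AT4G32330 (0.984). A correlation above 0.9 was reached by 219 probe sets for PSAN, 252 for PSAE-1, 53 for PSBW and 288 for PSBY, over arrays whose stages differed in 37.4% of all tested probe sets. Over the 8 stage 6.0 arrays alone these counts were 81, 25, 2 and 37. There PSAN was most like AT1G15350 (0.987), AT1G06640 (0.974) and AT1G25230 (0.972), and PSAE-1 most like AT2G21640 (0.976), AT1G14300 (0.958) and AT1G27930 (0.948). PSBW was then most like CCL (0.969), the chloroplast gene psaJ (0.912) and PIFI (0.883), and PSBY most like AT2G28240 (0.975), AT5G65540 (0.965) and AT1G79870 (0.965). Of these 12 nearest genes at stage 6.0 only AT1G25230 was also among the nearest over all 10 arrays.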

How the data were processed

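Leaf RNA was measured on 10 arrays of 22810 probe sets. The deposited values are linear intensity signals that the authors computed with MAS5, per the submitters' processing notes, which give no version. No detection calls were used. Arrays were brought to a common mean of 100, trimmed by 2% and taken without the 64 control probe sets. Probe sets with a signal of at least 50 on at least 2 arrays were kept (12184). Differences of log2(signal + 16), a constant that shrinks the fold of dim genes, were fitted with limma 3.58.1 (lmFit, and eBayes with a trend) under R 4.3.3. The fit held all 5 groups and had 5 residual degrees of freedom and 5.74 prior ones, and p-values were adjusted by Benjamini-Hochberg over all probe sets of a comparison, with a threshold of 0.05. Values after ± are standard errors of a log2 difference (median 0.21); 2 arrays per group limit this precision.

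Genes were named through the platform's annotation, with symbols updated from TAIR10.1: 13513 probe sets name 1 gene, 503 several and 8730 none. The 17 gene lists hold 144 genes; 41 could be matched to a probe set and 39 of these were tested. The genes and lists were chosen with earlier results of these data known. The text names the 4 genes throughout, up to 3 tested genes per list by highest mean signal together with LHCB4.2 and RCA, and the 3 genes of most similar pattern per gene. Other list genes were named after their values were seen. The fit was tested on simulated data.

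Arrays of the same stock at both wild type stages showed little pairing (correlation of deviations from the group means 0.0762). For the label numbers of the altered genotypes it was 0.337 (NahG and ein2), 0.216 (ein2 and coi1) and -0.133 (NahG and coi1). Neither was taken to pair the arrays. Summaries used pandas 2.3.3 and numpy 2.4.6 under python 3.11.15, and plots used matplotlib 3.10.9. Alternatives changed the added constant, filter, scaling, prior, block, groups in the fit and arrays.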

Additional observations from a re-analysis of the deposited data

How the results depend on the processing

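Of 840 alternative values for the 40 differences of the 4 genes, 795 kept their direction and their side of the threshold, and 19 differences did so under every alternative run. Many of these runs could not change a direction. Changing the filter, prior, block or groups in the fit, or leaving out an array outside the comparison, moves only the p-value. The count is therefore no measure of how firm the directions are. Scaled to the hybridisation controls, calls were lost for PSAE-1 in NahG minus wild type (0.62 on the log2 scale), for PSAN in NahG minus ein2 (1.04) and NahG minus coi1 (1.2), and for PSBW (-0.28) and PSBY (-0.82) between the wild type stages. Against stage 3.9 they were lost in NahG for PSAN (-0.94), PSAE-1 (-0.63), PSBW (-0.09) and PSBY (-0.78), in ein2 for PSBW (-0.36), and in coi1 for PSBW (-0.25) and PSBY (-0.53). This scaling turned the sign of differences that had not passed: PSAE-1 (-0.01) and PSBW (-0.11) in ein2 minus coi1, and PSBW (-0.08) in ein2 minus wild type. It also changed the wild type stage calls over all probe sets from 2461 higher and 2099 lower to 3826 and 347. With no filter PSAE-1 in NahG minus wild type (0.85) and PSBW in NahG against stage 3.9 (-0.76) lost their calls, with more probe sets in the adjustment. Quantile normalization ended the PSBW calls against stage 3.9 in NahG (-0.29), ein2 (-0.45) and coi1 (-0.33) and gave -0.12 for PSBW in ein2 minus coi1. The cause of these scaling changes was not tested.

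With single arrays left out, which leaves fewer samples and assumes that a lone array varies like the other groups, the log2 differences whose call or sign changed ran as follows. For PSAN NahG minus ein2 ran from 0.81 to 1.15. For PSAE-1 NahG minus wild type ran from 0.77 to 0.94, NahG minus coi1 from 0.41 to 0.85, coi1 minus wild type from -0.0 to 0.44 and ein2 minus coi1 from -0.1 to 0.34. For PSBW the ranges against stage 3.9 were -0.87 to -0.66 in NahG, -1.19 to -0.75 in ein2 and -1.31 to -0.67 in coi1. PSBW against wild type ran from -0.0 to 0.43 in ein2 and from -0.13 to 0.51 in coi1. Between genotypes it ran from -0.09 to 0.55 in NahG minus coi1, from -0.01 to 0.42 in NahG minus ein2 and from -0.3 to 0.34 in ein2 minus coi1. For PSBY ein2 minus wild type ran from -0.23 to 0.14.

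The replicate block changed no call of the 4 genes: PSAE-1 in NahG minus wild type stayed at 0.85, with a limma adjusted p of 0.0314 with the stock as a block and 0.0359 with the label numbers. Over all probe sets the stock block moved the calls from 15 to 68 in ein2 and from 123 to 256 in coi1 minus wild type, and from 86 to 215 in ein2 minus coi1. Other counts over all probe sets moved by over 1.5 times as well. Against wild type, the counts in NahG (1110), ein2 (15) and coi1 (123) ran from 432 to 1370, 0 to 78 and 13 to 308 with single arrays left out. Between genotypes, NahG minus ein2 (917) ran from 383 to 1107, NahG minus coi1 (1343) from 587 to 1714 and ein2 minus coi1 (86) from 11 to 278. Against stage 3.9, NahG (3801) ran from 2504 to 3785, ein2 (4205) from 2611 to 4170 and coi1 (4221) from 2609 to 4221. With no filter ein2 had 3, coi1 37 and ein2 minus coi1 43. With the hybridisation controls NahG had 380, ein2 33, NahG minus ein2 329, NahG minus coi1 457 and ein2 minus coi1 55, and against stage 3.9 NahG had 2037 and ein2 2207. With only the groups compared in the fit, coi1 had 212, NahG minus coi1 2079 and ein2 minus coi1 575.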
